A study of Mus musculus with 6 samples.

Results

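The nuclear genes of the respiratory chain were taken from the deposited table by their symbols: all entries that begin with Nduf, Uqcr, Cox4 to Cox8 or Atp5, and the 4 succinate dehydrogenase genes Sdha to Sdhd. This gave 84 of 29209 entries, of which 81 have a p-value from the authors and are called tested. One of them, Cox4nb, is an older symbol of Emc8, a subunit of the endoplasmic reticulum membrane complex that is named for its place beside Cox4i1. It is no respiratory gene and is left out of the groups below, which leaves 83 genes, 80 of them tested. The 3 untested genes are the isoforms Cox7b2, Cox8b and Cox8c.

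RNA came from 6 subcutaneous tumours that spleen cells of diseased mir-155LSLtTA mice had formed in NCr nude mice, an athymic strain with few mature T cells. In these cells an overexpressed miR-155 is shut off by doxycycline (DOX). In 3 samples the host received chow with 2.3 mg/kg DOX for 16 hours before harvest, and in the other 3 it received none; both groups carry the transgene. The comparison asks which transcripts differ soon after the microRNA is withdrawn. Doxycycline is an antibiotic that can also act on mitochondrial ribosomes, and no DOX-treated tumour without the transgene was analysed here, so withdrawal of miR-155 and DOX itself cannot be told apart.

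The authors' deposited table holds 1 fold change, 1 unadjusted p and 1 adjusted p per entry, and no value per sample. Levels, spreads and depth per sample are therefore unknown. The fold is read here as DOX over no DOX. The table does not name its numerator, and "rose" and "fell" exchange places if it is the other group. A gene is said to have fallen or risen at the authors' adjusted p under 0.05. The labels do not state whether each of the 3 tumours in a group grew in its own animal. The p-values rest on the variation among the 6 samples alone, and this variation may be technical. As an approximate error, the log2 fold was divided by the normal quantile of the unadjusted p; this is called the implied standard error.

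The respiratory chain is a series of complexes in the inner mitochondrial membrane. Complex I (NADH dehydrogenase) and complex II (succinate dehydrogenase) pass electrons to coenzyme Q, complex III passes them on to cytochrome c, and complex IV (cytochrome c oxidase) passes them to oxygen. Complexes I, III and IV pump protons, and complex V, the ATP synthase, uses the return of these protons to make ATP. Most subunits are encoded in the nucleus, a few in mitochondrial DNA, and separate assembly factors build the complexes without staying in them.

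Transcripts of the respiratory chain were lower in DOX-treated tumours across all 5 complexes. Of the 80 tested genes, 37 fell (46.2%) and 0 rose, against 5.61% that fell and 5.72% that rose among all 18543 entries tested. By the unadjusted p, 52 of the 80 were under 0.05, all with a fold below 1, against 10.4% of all entries tested. With Cox4nb counted, the falls were 38 at the threshold used here, 45 at an adjusted p under 0.1 (7.35% of all entries), 16 at 0.01 (3.07%) and 3 under a Bonferroni adjustment (0.831%). The fold was below 1 for 73 of the 80, against 40.6% of all entries tested. The median log2 fold was -1.19, with quartiles of -1.39 and -0.81, against a median of 0.17 over all tested entries with a finite fold. All of the falls were at least 2-fold. With a median implied standard error of 0.44, a smaller fall would seldom pass the threshold, so this size follows largely from the threshold. The plot of folds by complex gives each gene's place.

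**Figure D1:**
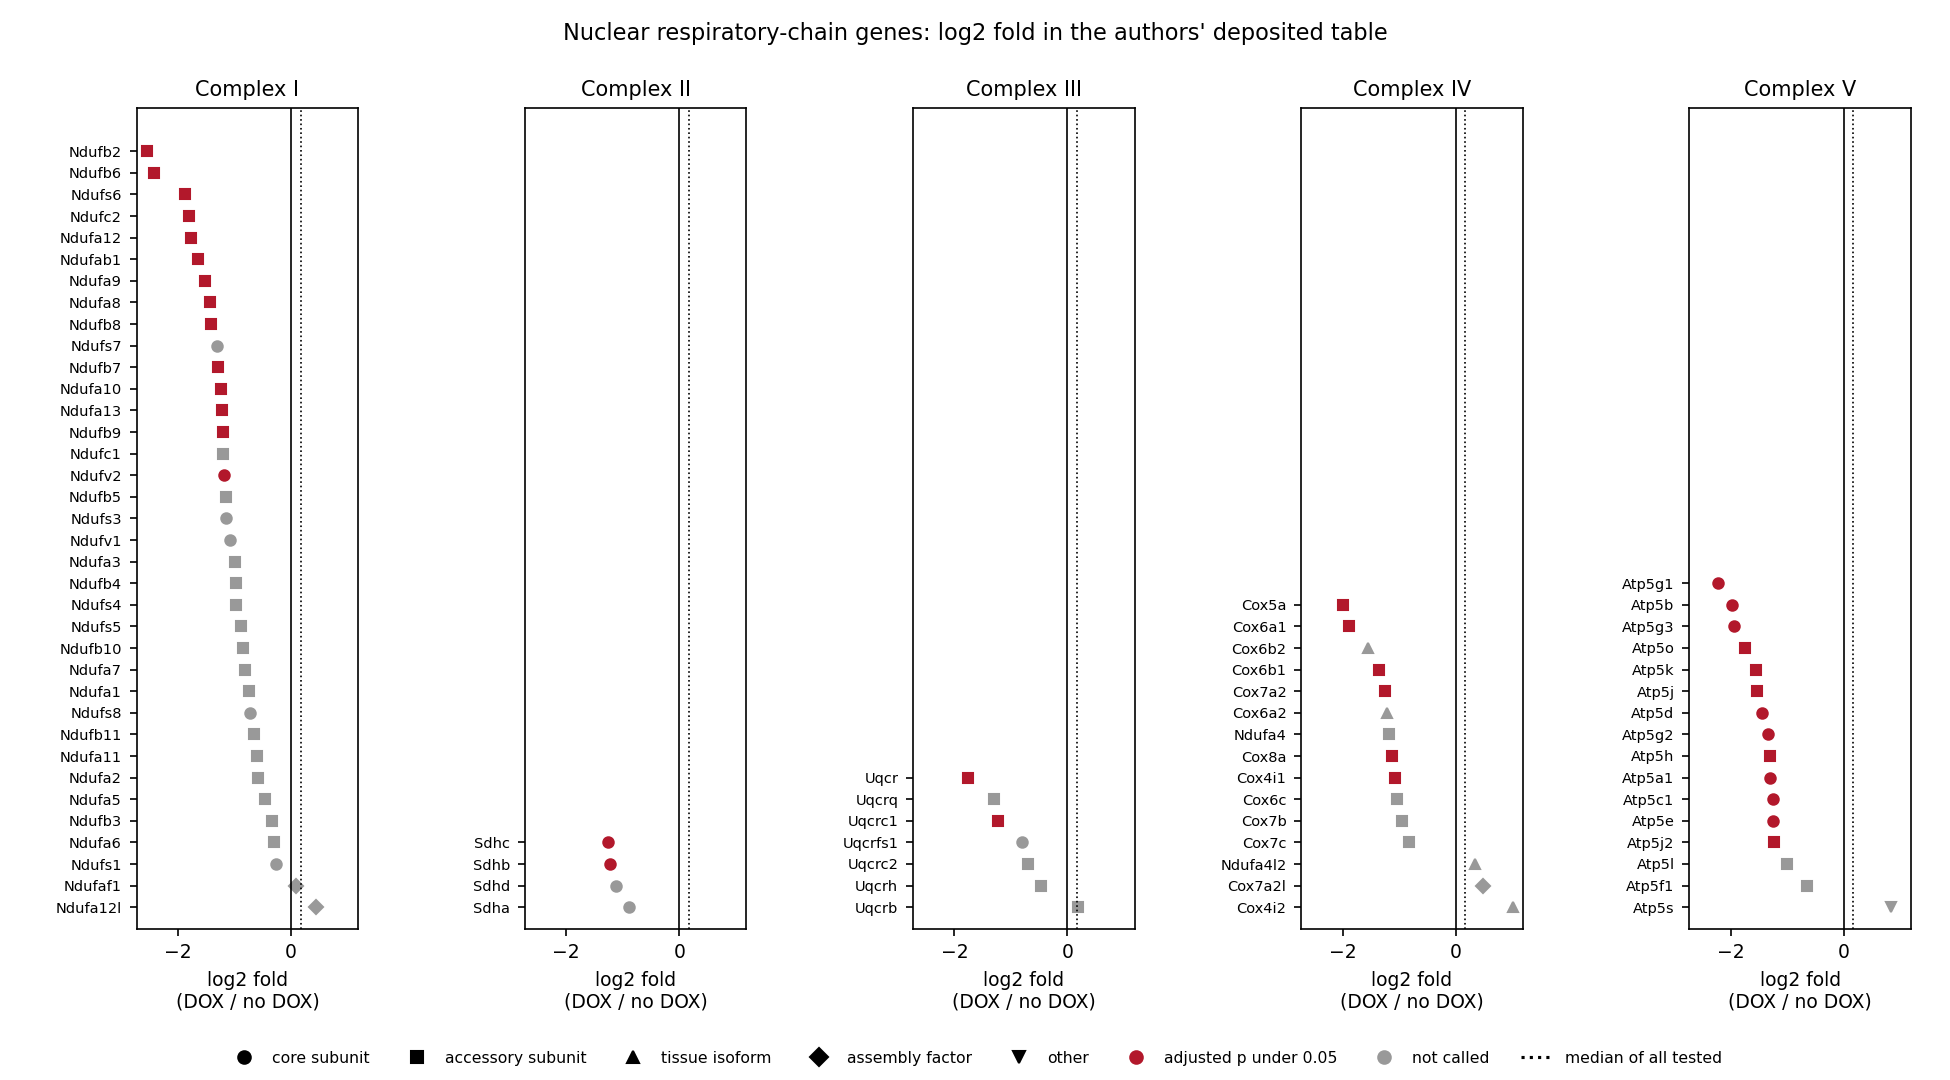
Log2 fold (DOX over no DOX, horizontal axis) of tested respiratory genes with a finite fold in the authors' deposited table, with one row per gene and one panel per complex. Marker shape gives the class, red marks an adjusted p under 0.05, and the dotted line is the median of all tested entries (0.17). Nearly all subunits lie left of 0, and the red points reach from -1.06 to -2.56.

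Complex V had the highest share of falls, with 13 of 16 genes (81.2%), a median log2 fold of -1.32 and 6 of the 10 smallest p-values among the members. Both large catalytic subunits fell: Atp5b, the beta subunit, had a log2 fold of -1.97 (adjusted p = 2.78e-06) and Atp5a1, the alpha subunit, one of -1.30 (0.00266) in the authors' deposited table. The other genes of the F1 head fell to a like extent, Atp5d at -1.45, Atp5c1 at -1.26 and Atp5e at -1.25 in the authors' deposited table. All 5 F1 genes therefore passed, in a narrow range of folds apart from Atp5b.

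The c ring, the rotor through which protons pass, is encoded by 3 genes for the same mature protein. Each of them fell: Atp5g1 at -2.22 (adjusted p = 0.000181), Atp5g3 at -1.94 (7.44e-05) and Atp5g2 at -1.33 (0.00386) in the authors' deposited table. Of the peripheral stalk, which holds the head still, Atp5o (-1.75, adjusted p = 0.000423), Atp5j (-1.53) and Atp5h (-1.31) fell in the authors' deposited table. The stalk gene Atp5f1, listed today as Atp5pb, did not pass, at -0.64 (adjusted p = 0.290) in the authors' deposited table. Among the small membrane subunits Atp5k (-1.55) and Atp5j2 (-1.23) fell, while Atp5l stood at -1.01 (adjusted p = 0.0861) in the authors' deposited table. Atp5s, today Dmac2l, a coupling factor rather than a structural subunit, had the only fold above 1 in this group, 0.84 on the log2 scale with an adjusted p of 0.937 in the authors' deposited table; its implied standard error of 1.60 is wide.

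In complex IV, 6 of 16 tested genes fell (37.5%), and all 6 were among the 10 ubiquitous nuclear subunits, whose median log2 fold was -1.16. These subunits surround a catalytic core that mitochondrial DNA encodes. Cox5a had the smallest p-value (-2.0, adjusted p = 8.72e-05), followed by Cox6a1 (-1.88, 0.000616) and Cox6b1 (-1.35, 0.00639) in the authors' deposited table. Cox4i1 (-1.06), Cox8a (-1.13) and Cox7a2 (-1.26) also fell in the authors' deposited table. The remaining ubiquitous subunits did not pass at this threshold, though each had an unadjusted p under 0.05: Cox6c at -1.03, Ndufa4 at -1.18, Cox7b at -0.94 and Cox7c at -0.82 in the authors' deposited table. Ndufa4 was first assigned to complex I and is placed here with complex IV, where it is now known to reside.

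Several complex IV subunits have a second gene used in particular tissues or conditions, and none of these isoforms was called. The heart and muscle isoform Cox6a2 had a log2 fold of -1.21 with an adjusted p of 0.935 in the authors' deposited table, beside -1.88 for its ubiquitous partner Cox6a1, and its implied standard error of 2.23 covers both no change and a fall as large. The testis isoform Cox6b2 stood at -1.54 with an implied standard error of 6.30, beside -1.35 for Cox6b1, in the authors' deposited table. Cox7a1, the muscle counterpart of Cox7a2, has a listed ratio of 0 (unadjusted p = 0.0218, adjusted p = 0.130) in the authors' deposited table, and no fold is given for it. Cox4i2, a lung and hypoxia isoform of Cox4i1, was at 1.01, and Ndufa4l2, a hypoxia-induced relative of Ndufa4, at 0.35, each with an unadjusted p of 1 in the authors' deposited table. The falls seen in complex IV thus belong to the ubiquitous genes, and the precision for the isoforms does not allow a comparison within pairs.

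Complex II has 4 subunits, all nuclear. The iron-sulphur subunit gene Sdhb (-1.23, adjusted p = 0.0260) and the membrane anchor gene Sdhc (-1.27, 0.0378) fell in the authors' deposited table. The other anchor gene, Sdhd, lay just outside the threshold at -1.12 (adjusted p = 0.0591), and the flavoprotein gene Sdha stood at -0.89 (0.101) in the authors' deposited table. The 4 log2 folds thus lay between -1.27 and -0.89, close to one another on both sides of the threshold.

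Complex I is the largest, with a matrix arm that oxidizes NADH and a membrane arm that pumps protons. Of its 37 tested genes 14 fell (37.8%), with a median log2 fold of -1.09, and all 35 subunit genes had a fold below 1. In the membrane arm 9 of 19 subunits fell and the median was -1.21. The largest falls of all members were here: Ndufb2 at -2.56 (adjusted p = 0.00260) and Ndufb6 at -2.42 (0.00621) in the authors' deposited table. Ndufc2 followed at -1.81, Ndufa8 at -1.44 and Ndufb8 at -1.42 in the authors' deposited table. Ndufb7 (-1.30), Ndufa10 (-1.25), Ndufa13 (-1.23) and Ndufb9 (-1.21) complete the falls of this arm in the authors' deposited table. The other 10 membrane subunits lay between -1.21 (Ndufc1) and -0.34 (Ndufb3) in the authors' deposited table, where Ndufb5 (-1.15, adjusted p = 0.0704) came nearest to the threshold.

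In the matrix arm 4 of 15 subunits fell and the median was -0.98. Only 1 of its 7 core subunits, which carry the flavin and iron-sulphur clusters, was called: Ndufv2, at -1.19 (adjusted p = 0.0150) in the authors' deposited table. Its partner Ndufv1, which binds NADH, stood at -1.09 (adjusted p = 0.0974), and Ndufs7 at -1.30 (0.0681), in the authors' deposited table. Ndufs3 (-1.15) and Ndufs8 (-0.72) were lower in DOX tumours without passing in the authors' deposited table. Ndufs1, which carries several of the clusters, had the smallest difference of all complex I subunits, -0.27 (adjusted p = 0.919) in the authors' deposited table with an implied standard error of 0.46. The accessory subunits Ndufs6 (-1.88), Ndufa12 (-1.77) and Ndufa9 (-1.52) fell in the authors' deposited table. Ndufab1, an acyl carrier protein found in both arms, fell too, at -1.65 (adjusted p = 0.0439) in the authors' deposited table. The difference between the arms was not tested.

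Complex III had the lowest share, 2 of 7 genes (28.6%), and the median nearest to 0, at -0.80. Uqcr, the small subunit listed today as Uqcr11, fell at -1.76 (adjusted p = 0.00589), and so did Uqcrc1, a large matrix-side subunit, at -1.24 (0.0107), in the authors' deposited table. Uqcrq lay just outside the threshold at -1.29 (adjusted p = 0.0661) in the authors' deposited table. Uqcrc2 (-0.70), the Rieske iron-sulphur protein gene Uqcrfs1 (-0.80) and Uqcrh (-0.46) were not called in the authors' deposited table. Uqcrb, 0.19 (adjusted p = 0.870), was the 1 subunit of the 71 with a fold above 1 in the authors' deposited table. Cyc1, which encodes the cytochrome c1 of this complex but falls outside the symbol rule, stood at -1.0 (adjusted p = 0.171) in the authors' deposited table. The differences in share between the 5 complexes are descriptions and were not tested. The median implied standard errors were 0.48, 0.41, 0.37, 0.41 and 0.40 for complexes I, II, III, IV and V. The part of precision in the shares called was not tested.

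All 37 falls among the 80 tested respiratory genes lay in subunits. The other tested genes are few, namely 3 assembly factors, 5 tissue isoforms and Atp5s. Over all entries tested 5.61% fell, so 0 falls among so few genes is near that share. The difference between subunits and assembly factors was not tested. Of the 71 structural subunits without tissue isoforms, 37 fell (52.1%), with a median of -1.21. Pooled over the complexes, core and accessory subunits were alike in share, with 11 of 20 and 26 of 51. The core share varied by complex: all 5 F1 and all 3 c ring genes fell, against 1 of 7 in complex I and 2 of 4 in complex II. The rule holds only 3 assembly factors and none was called: Ndufaf1 at 0.091, Ndufa12l, today Ndufaf2, at 0.44, and the supercomplex factor Cox7a2l at 0.49 in the authors' deposited table, with adjusted p-values of 1, 1 and 0.530. Their folds all lie above 1, but for Ndufa12l the implied standard error is 2.57, whereas it is 0.38 for Cox7a2l. The plot of fold against p by class shows these 3 points at folds above 1, where Uqcrb is the only subunit. A further 5 assembly factors of the Ndufaf family stand in the table under older names, and none of them was called either. Their values were 0.43 for Ndufaf3 (listed as 4733401H18Rik), -0.18 for Ndufaf4 (1110007M04Rik), -1.01 for Ndufaf5 (2310003L22Rik), -1.73 for Ndufaf6 (2310030N02Rik) and -0.89 for Ndufaf7 (2410091C18Rik) in the authors' deposited table. With these included, the median of the assembly factors moved from 0.44 to -0.046. Another 4 subunits under older names, Ndufv3, Uqcr10, Atp5mpl and Atp5md, had folds from -1.16 to -0.57 on the log2 scale, and none was called.

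**Figure D2:**
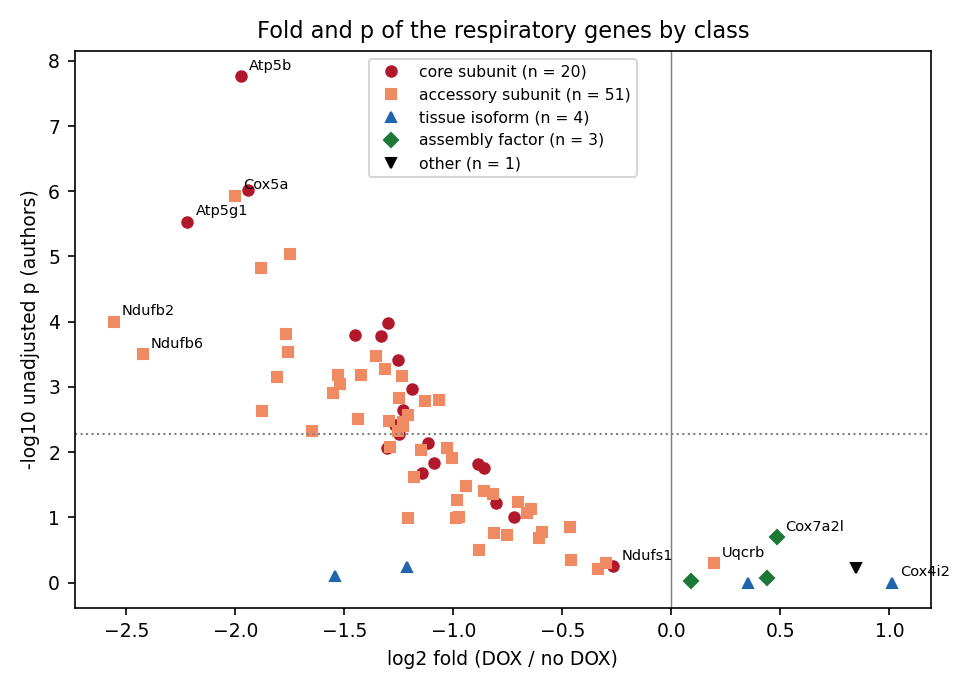
Log2 fold (horizontal axis) against the -log10 unadjusted p of the authors (vertical axis) for the 79 tested respiratory genes with a finite fold, coloured by class; the dotted line marks the largest unadjusted p among genes that fell. The 3 assembly factors lie right of 0 near the bottom, while 70 of 71 subunits lie left of 0.

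Assembly factors outside the rule, from 5 lists of one complex each, were counted in the same way; the list for complex V includes Atpif1, the inhibitor of the ATP synthase, which is no assembly factor. Of 48 tested, 1 fell (2.08%) and 0 rose, against 5.61% and 5.72% of all entries tested. An unadjusted p under 0.05 with a fold below 1 was found for 8, against 10.4% of all entries, and the median log2 fold was -0.53. These shares rest on few calls. The fold was below 1 for 41 of the 48 and above 1 for 7, whereas it was below 1 for 40.6% of all entries tested. The 1 fall was Uqcc2, a complex III factor listed as 2900010M23Rik, at -1.90 (adjusted p = 0.0207) in the authors' deposited table. By complex, the medians were -0.27 over 10 genes for complex I, -0.41 over 4 for complex II, -0.56 over 5 for complex III, -0.55 over 24 for complex IV and -0.96 over 5 for complex V, with Atpif1 at -0.99 in the authors' deposited table. Of the complex IV factors, Lrpprc (-1.10), Cox18 (-1.94) and Cox14, listed as 2310016M24Rik (-1.30), came nearest with adjusted p-values from 0.0592 to 0.0668 in the authors' deposited table. The median implied standard error was 0.61 for the genes of these lists and 0.44 for the subunits, so their folds were measured with less precision. The part of that precision in the difference in calls was not tested.

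Electron carriers and regulators around the chain were counted against the same shares of all entries, 5.61% that fell and 5.72% that rose. Cycs, the gene of cytochrome c, fell at -1.51 (adjusted p = 0.00700) in the authors' deposited table and was the 1 call among 16 cytochrome c and coenzyme Q genes, whose median was -0.41. Of 8 other enzymes that feed electrons into the chain, 2 fell and 0 rose. Their folds were below 1 for 4 and above 1 for 4, with a median log2 fold of -0.15. The falls were Etfb, of the electron transfer flavoprotein, at -1.42 (adjusted p = 0.0130) and Dhodh, of pyrimidine synthesis, at -1.72 (0.0382) in the authors' deposited table. Prodh (2.44, adjusted p = 0.0727) and Etfdh (0.99, 0.0831) had folds above 1 without being called in the authors' deposited table. Of 21 tested regulators of respiratory genes or mitochondrial DNA, 2 fell and 1 rose. Besides Myc (-4.80), the coactivator gene Pprc1 fell at -1.63 (adjusted p = 0.0365), while Mterf3, a repressor of mitochondrial transcription listed as Mterfd1, rose at 1.71 (0.0112) in the authors' deposited table. Nrf1 (0.024), Gabpa (0.51), Tfam (-0.17) and Esrra (0.055), which encode factors of mitochondrial biogenesis, were not called in the authors' deposited table. Of the mitochondrially encoded subunits only mt-Nd4 was tested here, at 0.44 (adjusted p = 0.489) in the authors' deposited table.

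Another pair of groups of mitochondrial genes was set beside the chain. Of 14 tricarboxylic acid cycle genes 6 fell (42.9%) and 0 rose, with a median log2 fold of -1.08, led by Idh3a at -2.0 in the authors' deposited table. Of 75 mitochondrial ribosomal protein genes 13 fell (17.3%) and 0 rose, with a median of -1.05. The medians of the 3 groups therefore lie close together, while the shares called differ; the median implied standard error was 0.53 for the ribosomal protein genes, 0.42 for the cycle and 0.44 for the respiratory genes. The differences between the groups were not tested. The cumulative plot shows the genes of the assembly lists between these groups and the bulk of tested entries.

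**Figure D3:**
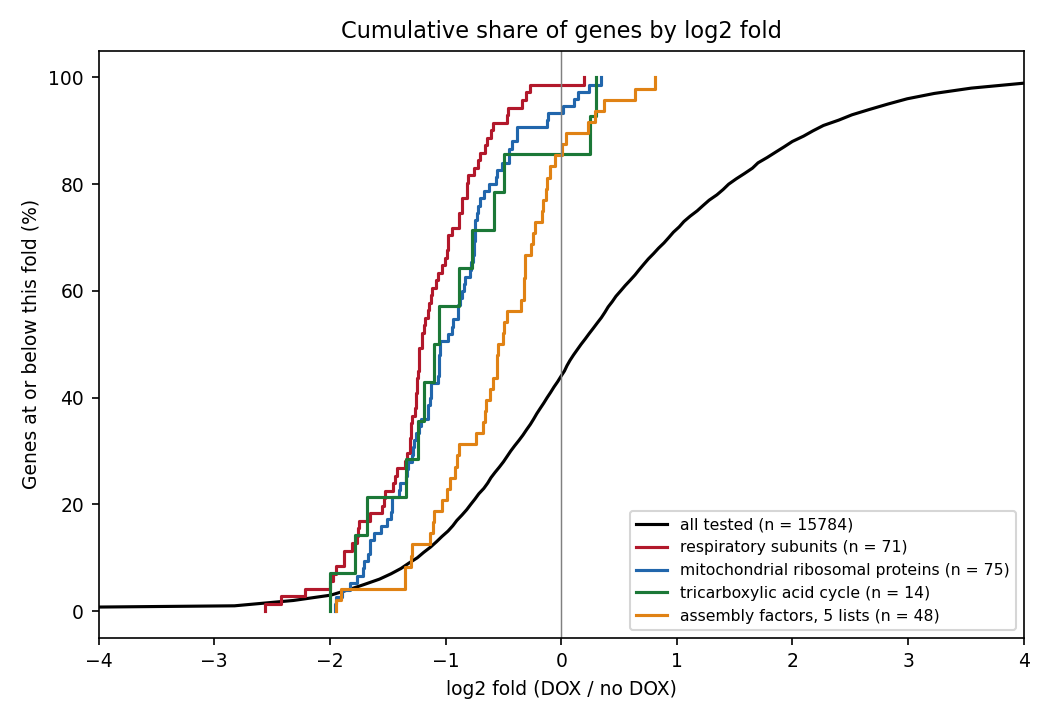
Percentage of genes (vertical axis) at or below each log2 fold (horizontal axis) for all tested entries with a finite fold, the 71 respiratory subunits, 75 mitochondrial ribosomal protein genes, 14 tricarboxylic acid cycle genes and the 48 genes of the 5 assembly lists outside the rule, Atpif1 included. The curve of the subunits crosses 50% at -1.21 and that of the assembly lists at -0.53, against 0.17 for all tested entries.

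Markers of several cell types were counted in the same comparison, in which 5.72% of all entries tested rose and 5.61% fell. The cell type of the tumour cells is not given here, so no list is read as cells other than the tumour's. All 18 macrophage and monocyte markers tested had a fold above 1 and 5 rose (median 2.34). Of 13 fibroblast markers 2 rose (median 2.17), of 10 neutrophil markers 3 rose (2.33), of 11 skeletal muscle markers 1 rose (2.26), and of 16 B lineage markers 5 rose and 1 fell (0.49). Only 3 of 8 adipocyte markers were tested, and 1 of these, Lpl, rose (median 2.92), while Adipoq, Plin1, Lep, Ucp1 and Cidec have no test. Among 10 endothelial markers 1 fell (0.62). No call was made among 10 T cell markers (0.20), 8 NK cell markers (3.75) and 5 erythroid markers (1.93). The medians rest on finite folds alone. Those number 2 for adipocyte, 4 for erythroid, 6 for NK cell, 7 for neutrophil and 9 for skeletal muscle markers. In a bulk sample, fewer cells of a type and less RNA per cell cannot be told apart. Levels per group are unknown, and the part of these markers in the lower respiratory transcripts was not tested.

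Respiratory transcripts are short, and short transcripts fell more often in this comparison. The median length of the longest coding transcript was 891.5 bases for the tested respiratory genes and 3158 for all tested genes with one. Among all tested genes, 20.0% of those under 1000 bases fell, 9.57% of those from 1000 to under 2000 bases and 5.13% of those of 2000 bases or more. The respiratory genes fell in 21 of 46, 9 of 25 and 7 of 9 cases in these classes, which is above the share of all genes in each. Their median log2 folds by class were -1.18, -1.15 and -1.30, against -0.78, -0.39 and 0.19 for all tested genes. Spearman's rho between log2 fold and length was -0.05 over the 79 respiratory genes and 0.29 over 13174 tested genes, which share the same libraries and are not independent. The longest annotated transcript need not be the one expressed. The share of falls within each length class is plotted beside that of all genes.

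**Figure D4:**
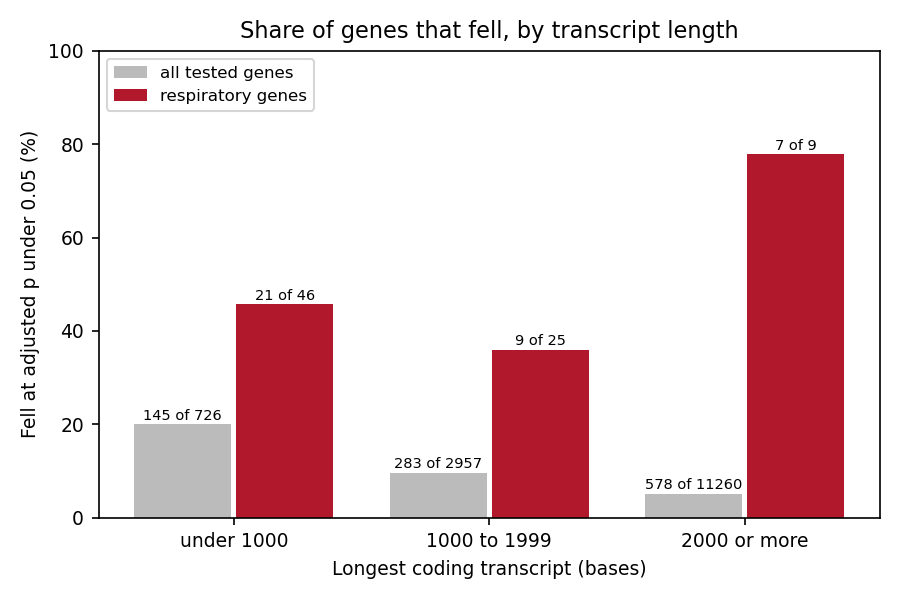
Percentage of genes that fell at the authors' adjusted p under 0.05 (vertical axis, from 0) in 3 classes of transcript length (horizontal axis), for all tested genes (grey) and the respiratory genes (red), with counts above the bars. The red bar is higher in every class: 45.7% against 20.0%, 36.0% against 9.57%, and 77.8% against 5.13%.

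Many respiratory genes have processed copies elsewhere in the genome with which short reads can be shared. Of the 83 genes, 19 have at least 1 other annotated gene whose transcript matches 80% or more of their coding sequence at 95% identity or more. Of these 19, 8 fell, namely Atp5g1, Atp5g2, Atp5o, Atp5h, Atp5k, Uqcr, Ndufa12 and Ndufab1, so the division of reads is uncertain for them. Atp5l has 8 such copies and Uqcrb 3. Without the genes that have copies, complex V kept 8 falls, among them Atp5b, Atp5g3 and Atp5a1, and complex III 1.

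The promoters of respiratory genes are known for sites of NRF1, of ETS factors such as GABPA, and of YY1, and these motifs were looked up on both strands in windows of 250 bases before to 50 after each start (RefSeq, GRCm38.p6). Windows were found for 66 of the 80 tested genes. The NRF1 letters, GCGCA and GCGC with any 1 base between them, stood in 25.8% of them, against 10.1% of 11503 tested genes and 5.19% of all 27025 genes with a window. The ETS letters CCGGAAG stood in 25.8%, against 17.7% of tested genes. The YY1 letters AAGATGG stood in 16.7%, against 7.92%, and the E-box CACGTG, the motif bound by MYC, in 9.09%, against 11.1%. Of the 33 genes that fell, 10 held the NRF1 letters, and of the 33 not called 7 did; the numbers for ETS were 11 and 6, for YY1 5 and 6, and for the E-box 2 and 4. By complex, NRF1 letters were in 6 of 15 windows of complex V and 7 of 33 of complex I. For complexes II, III and IV the numbers were 2 of 3, 1 of 4 and 1 of 11. The E-box stood in 4 of 15 windows of complex V, 2 of 33 of complex I and 0 of complexes II, III and IV. A match of letters is a description of the window and no evidence of binding.

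The following stretches show what such a promoter looks like in genes that fell, in a gene just outside the threshold and in genes that were not called. Each is 100 bases long, ends before the first annotated transcript base, and runs 5′ to 3′ on the gene's strand, with the matched letters in capitals (RefSeq, GRCm38.p6; the authors' build is mm9, so these coordinates serve for the sequences alone). Cox6a1 (chr5:115348982-115349081, minus strand, NRF1) and Atp5h (chr11:115419963-115420062, minus strand, NRF1) fell, as did Uqcr (chr10:80406831-80406930, minus strand, ETS). Sdhd (chr9:50603850-50603949, minus strand) holds an NRF1 and an ETS match and lay just outside the threshold. Ndufa11 (chr17:56717662-56717761, plus strand, NRF1), a membrane arm subunit at -0.61 in the authors' deposited table, and the assembly factor gene Ndufaf1 (chr2:119662835-119662934, minus strand, ETS) were not called.
Cox6a1: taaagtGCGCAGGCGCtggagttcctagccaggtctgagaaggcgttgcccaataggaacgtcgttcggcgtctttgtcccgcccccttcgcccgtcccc
Atp5h: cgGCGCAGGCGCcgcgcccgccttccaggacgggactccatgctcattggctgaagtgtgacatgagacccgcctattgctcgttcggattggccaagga
Uqcr: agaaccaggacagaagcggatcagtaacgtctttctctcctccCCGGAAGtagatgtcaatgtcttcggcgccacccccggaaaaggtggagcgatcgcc
Sdhd: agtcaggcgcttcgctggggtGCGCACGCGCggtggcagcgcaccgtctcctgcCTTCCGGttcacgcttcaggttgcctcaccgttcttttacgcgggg
Ndufa11: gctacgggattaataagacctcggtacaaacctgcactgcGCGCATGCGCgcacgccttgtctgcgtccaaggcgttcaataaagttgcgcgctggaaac
Ndufaf1: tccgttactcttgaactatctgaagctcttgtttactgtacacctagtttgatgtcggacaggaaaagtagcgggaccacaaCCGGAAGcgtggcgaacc

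The 6 genes shown have log2 folds from -1.88 to 0.091 in the authors' deposited table. The reverse strand match of ETS in Sdhd reads CTTCCGG.

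A microRNA lowers its targets through matches to its seed, bases 2 to 8, in their 3' UTRs. The mature miR-155 is shown with its seed in capitals, beside the matched sites in Uqcr and Ndufs1, which have the match directly followed by an A.
miR-155-5p: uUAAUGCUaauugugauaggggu
Uqcr: cttgatgggtgcAGCATTAaacctta
Ndufs1: taattgtgtgcaAGCATTAactagtt
Counted as matches were AGCATTA, which pairs with bases 2 to 8, and GCATTAA, which leaves out base 8 and ends in an A. Of the 80 tested respiratory genes 10 (12.5%) held a match of either kind in the longest annotated 3' UTR, against 13.6% of 14902 tested genes with a UTR. All 10 had a fold below 1; 6 fell and 0 rose, whereas 9.68% of all tested genes with a match rose and 4.10% fell. The 6 are Atp5g1, Atp5g2, Uqcr, Ndufb8, Ndufv2 and Sdhc, and of these Atp5g2 and Sdhc hold GCATTAA alone. The values of the 6 stand above. The median log2 fold was -1.23 for respiratory genes with a match and -1.18 for those without. Ndufs1, with the smallest difference among complex I subunits, is also among the 10, and so are Ndufb5, Uqcrfs1 and Ndufb11.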

How the data were processed

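Total RNA of dispersed tumours freed of red cells was depleted of ribosomal RNA (Ribozero) for sequencing, per the labels' protocols. RSEM, DESeq and the mouse build mm9 are named in the submitters' processing notes, without version; the counting and strand settings are not given in the sources used here. The authors deposited a linear ratio (fold change) of the groups with an unadjusted and an adjusted p-value, per the file headers. Log2 folds were computed here from that ratio. A Benjamini-Hochberg adjustment of the deposited p-values over 18543 entries differed from the authors' by at most 2.09e-06. The depth of the samples is not known, and the authors' p-values replace any test across samples. A ratio of 0 or infinity counts as a direction and is left out of medians. Of all tested entries, 579 have a ratio of 0 and 2180 an infinite ratio. The median of 0.17 thus leaves out more folds above 1 than below.

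Members and lists were chosen with earlier results of these data known. Named genes are all called members, all assembly factors, isoforms with their partners, core subunits, those nearest the threshold, and up to 4 called genes per pathway list; 1 gene counted in its groups is not reported here by itself and has no row in the plot by complex. Symbols, lengths, 3' UTRs and promoters came from RefSeq and GENCODE M21 (GRCm38). Copies were found with BLAST 2.17.0. Implied standard errors use p up to 0.9. Counting, adjustment and motif search were tested on simulated data.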

Additional observations from a re-analysis of the deposited data

How the results depend on the processing

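The table has no values per sample, so no sample could be left out. No paired analysis was possible because the table holds 1 comparison per gene and no value per sample. At an adjusted p under 0.01 the rule's falls went from 38 to 16, against 3.07% of all entries tested; subunits that fell numbered 16, with 3 in complex I, 0 in complex II, 1 in complex III, 3 in complex IV and 9 in complex V. Under Bonferroni 3 falls were left, against 0.831% of all entries tested, all 3 in subunits: 0 in complexes I, II and III, 1 in complex IV and 2 in complex V. Both are stricter by construction. With genes under older names added, the median log2 fold of the assembly factors turned from 0.44 to -0.046. Without genes that have near-identical copies, a setting chosen after seeing the data, complex V had 8 falls and complex III 1. The other settings were an adjusted p under 0.1, a 2-fold minimum, 1 entry per symbol, no isoforms, finite folds and Ndufa4 in complex I. Protein-coding entries alone and no Cox4nb were also set. Under all of these settings each count stayed within 1.5 times. The 2-fold minimum could remove nothing, because every fall already met it.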

Other observations

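Cox4nb, the entry that the symbol rule takes in although its gene, Emc8, serves the endoplasmic reticulum membrane complex, fell at a log2 fold of -1.26 (adjusted p = 0.0410) in the authors' deposited table. Its genomic neighbour Cox4i1 fell at -1.06 in the authors' deposited table.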
